A study of Homo sapiens with 3 samples.

Results

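The genes described here are the well-counted antisense genes of DU145, an androgen-independent line derived from human prostate cancer. They were chosen by the annotated type of the gene (antisense) and by their counts, at least 300 summed over the 3 RNA-seq libraries of the study. Of 5583 antisense genes among the 58735 genes listed, 3186 had a count, and 96 reached the minimum. Because the summed count chose them, their level is a description and was not tested. All 96 lay far above the minimum of 10 counts for testing, so that none was lost to it. Just inside the minimum were ELF3-AS1 with 318 counts summed, SLC16A1-AS1 with 309 and AC137932.1 with 303. Just outside were RASSF8-AS1 with 299, AC015712.2 with 297 and AC007552.2 with 289.

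An antisense gene is transcribed from the strand opposite to another gene, usually a protein-coding one, and its RNA is in most cases long and noncoding. Such RNAs arise in several ways. Some start beside the start of the coding gene and run away from it, some run into its last exons from beyond its end, and some begin inside it. A few are spliced hosts whose introns carry small nucleolar RNAs, which guide the modification of ribosomal RNA. Where both strands of a place are transcribed, a read from cDNA that did not keep the strand cannot be given to one of the genes, and for this reason each antisense gene is set here beside the coding gene that it overlaps.

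All 3 libraries came from DU145 cells kept in medium with 10% serum. By the labels, one is the control and the other 2 are Knockdown1 and Knockdown2 of PD-L1. The methods of the study describe a hairpin construct against PD-L1 in the lentiviral vector pLKO.1, the empty vector as its control, and selection with puromycin, the antibiotic whose resistance the vector carries. For the sequenced RNA they name DU145 and its numbered hairpin lines, but they list a single hairpin sequence. Whether the libraries labelled as knockdown carried different hairpins is thus not certain. Whether the sequenced control carried the empty vector or was selected is not given in the sources used here. The control has no replicate, nothing in the labels names separate cultures, and the spread between libraries of one condition was taken from the libraries labelled Knockdown1 and Knockdown2. The totals were 14733088 counts in the control and 14738298 and 15786457 in the libraries labelled Knockdown1 and Knockdown2, and 3 counts, the limit that a count of 0 allows, equalled 0.190 to 0.204 CPM, the count scaled to the total of its library. Where 3 values of a gene follow each other below, they belong to the control, Knockdown1 and Knockdown2 in that order, and whether a library lay above or below the control was read from the CPM.

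The targeted gene did not follow the labels. CD274, which encodes PD-L1, was counted 204, 213 and 224 times, with a fitted log2 fold change of 0.05 ± 0.20 (SE) and an adjusted p of 0.947 in edgeR's quasi-likelihood test. The libraries are therefore named by their labels throughout, and every direction given below rests on those labels. The text of the series speaks of BCPAP, a thyroid line, and the control's counts stand under a heading that names RBM45. Epithelial markers were high, with 16068 to 19056 counts for KRT8 and 755 to 907 for EPCAM, whereas KLK3 and TMPRSS2 had 0 counts in every library, thyroglobulin (TG) had 3 to 15, and the leukocyte marker PTPRC had 0 to 3. In bulk RNA, fewer cells that carry a transcript and less of it in each cell cannot be told apart.

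The sequences around the starts of 3 antisense genes are shown first because they carry a feature that few other starts have. SNHG7, ZFAS1 and SNHG12 are hosts of small nucleolar RNAs, and the RNAs of such hosts, like those of ribosomal proteins, commonly start with a C followed by pyrimidines. The RefSeq windows of GRCh38.p14 were used, of which 49 of the 96 genes had at least 1. Each run goes from 45 bases before the RefSeq start to 25 bases from it on, on the strand of the gene. Capitals mark the letters TATANAA, a form of the TATA box, and the first 4 bases from the RefSeq start. That start is the one of the deposited annotation in SNHG7, but lies 464 bases inside it in ZFAS1 and 1259 bases inside it in SNHG12. Distances between genes given further on use the deposited coordinates.
SNHG7, chr9:136728160-136728229, minus strand: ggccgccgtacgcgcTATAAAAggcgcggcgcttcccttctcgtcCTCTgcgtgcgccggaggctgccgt
ZFAS1, chr20:49278597-49278666, plus strand: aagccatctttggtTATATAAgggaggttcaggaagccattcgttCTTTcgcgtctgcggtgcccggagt
SNHG12, chr1:28581849-28581918, minus strand: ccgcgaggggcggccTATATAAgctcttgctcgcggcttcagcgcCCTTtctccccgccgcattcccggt

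The motif started 30 bases before the start in SNHG7 and SNHG12 and 31 bases before it in ZFAS1. Among 34943 distinct RefSeq windows, TATANAA on the strand of the gene, starting 40 to 25 bases before the gene, was held by 506, which is 1.45%. A first base C with the next 3 bases C or T was held by 1899, which is 5.43%, and both together by 22, which is 0.0630%. These forms were chosen after the sequences were seen, and a match is a description of letters, not a site. Of the 60 windows of the antisense genes described here, 3 held both, and these are the ones printed.

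The counts of SNHG7 and of the other hosts were then set side by side. SNHG7 had 904 counts in the control and 1296 and 1452 in the libraries labelled Knockdown1 and Knockdown2, so that both of the latter lay above the control. ZFAS1 had 744, 769 and 729 counts, and its libraries labelled as knockdown lay on either side of the control. SNHG12 had 181, 150 and 175 counts, with both lower. A further host by name, SNHG10, had 128, 153 and 151, with both higher. The fitted log2 fold change was 0.56 ± 0.13 for SNHG7, -0.03 ± 0.15 for ZFAS1, -0.20 ± 0.22 for SNHG12 and 0.20 ± 0.23 for SNHG10 (SE). The hosts with the TATANAA motif thus include genes with both libraries above, both below and 1 on each side of the control, and the differences between the hosts were not tested.

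The level of the 96 genes ranged widely. Their summed counts ran from 303 to 6243 with a median of 536, 17 of them had at least 1000, and the lowest count in a single library was 77. Together they held 48.4% of all counts on antisense genes, and 0.184%, 0.177% and 0.179% of the library totals. FGD5-AS1, one of the most studied antisense RNAs, had the most, with 2147, 2107 and 1989 counts. After FGD5-AS1 and SNHG7 came HCG18, a noncoding gene of the major histocompatibility region, with 1211, 1056 and 1226 counts. LUCAT1, first described in lung cancer, had 1030, 855 and 1086. The rest of the 10 most counted were NOP14-AS1, AL365181.3, GABPB1-AS1, ZFAS1, CTBP1-DT and PSMA3-AS1, with 2131 to 2748 counts summed.

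**Figure D1:**
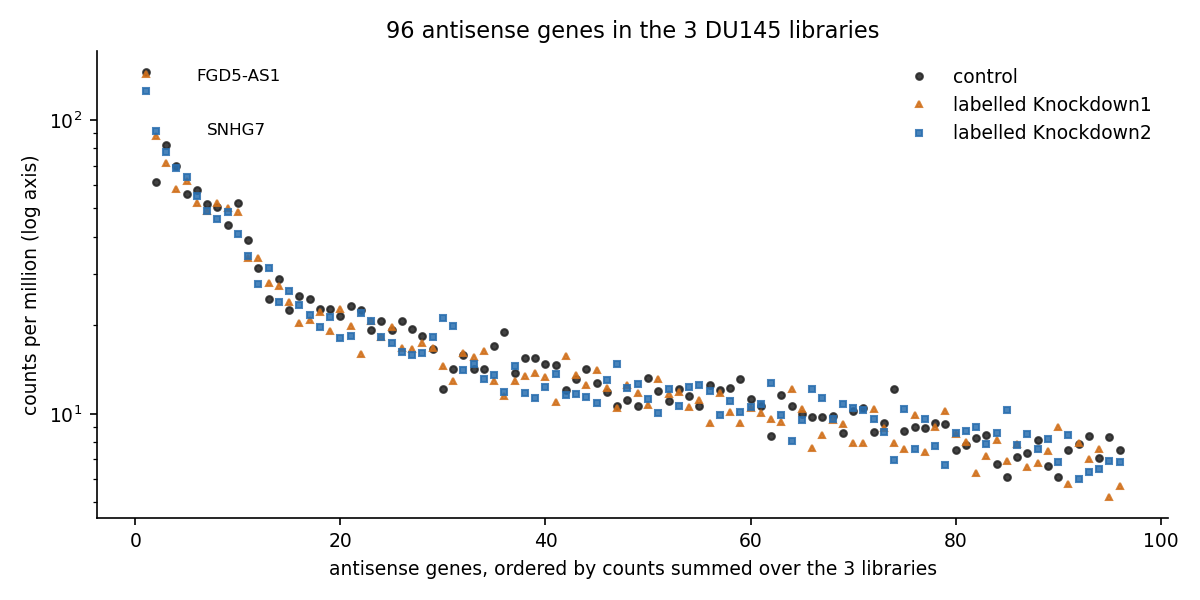
CPM (log axis) of the 96 antisense genes in the control (circles), the library labelled Knockdown1 (triangles) and the library labelled Knockdown2 (squares), ordered by counts summed over the 3 libraries. SNHG7, the second gene from the left, shows both libraries labelled as knockdown above the control, with 1296 and 1452 counts against 904.

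Per length the order was different, because the exons of the 96 genes span 289 to 19049 bases with a median of 3520. By the deposited FPKM, in which counts are divided by exon length and library size, AC099850.3 stood highest with 64.0, 51.8 and 50.5. It is a short gene of 321 exonic bases inside PRR11. AL513165.1, with 289 bases the shortest of the 96, had 45.4, 37.0 and 38.8 FPKM. AC005288.1 had 33.1, 31.6 and 27.8. These 3 were named after their values were seen. FGD5-AS1 followed with 28.2, 27.8 and 24.5, ZFAS1 with 22.3, 23.2 and 20.6, and SNHG7 with 14.0, 20.2 and 21.2 FPKM. SLC16A1-AS1, beside the gene of the lactate transporter MCT1, stood near the other end with 0.817, 0.514 and 0.680 FPKM.

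How far the counts of an antisense gene can be its own was examined from the exons of the annotation, GENCODE release 29, whose identifiers, positions and lengths were those of the files. The first measurement is the share of the exon bases of an antisense gene that no protein-coding exon covers on either strand. There were 315 antisense genes with 0% of their exon bases free, and 0 of them had a single count in any library. For 310 of these the covering exons lay on the opposite strand alone, while the most counted coding gene over each of them had a median of 1760 counts summed and up to 87705. Among 48 genes with over 0 to 5% free, 6.25% had a count, and the highest sum was 15. The share with a count was 50% at over 5 to 25% free (152 genes), 64.3% at over 25 to 50% (345 genes), 67.8% at over 50 to 75% (717 genes), 71.5% at over 75 to under 100% (1450 genes) and 53.3% at 100% (2556 genes).

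The same held for genes of any type. In all, 710 genes had every exon base under exons of opposite-strand genes and none under a same-strand exon, 17 of them protein-coding, and 0 of the 710 had a count. The 96 antisense genes had 51.6% to 100% of their exon bases free of coding exons, with a median of 92.4%. In 22 of them no base was covered, and in 72 an exon met a coding exon of the opposite strand. The lowest share belonged to AL118506.1, whose exons hold the whole of ABHD16B, a coding gene of 1491 exonic bases that had 0 counts. The deposited FPKM divide by the full exon length, so that they understate a partly covered gene. ZFAS1, for example, had 1884 counts per kilobase of exon free of all other genes against 999.6 per kilobase of listed length.

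**Figure D2:**
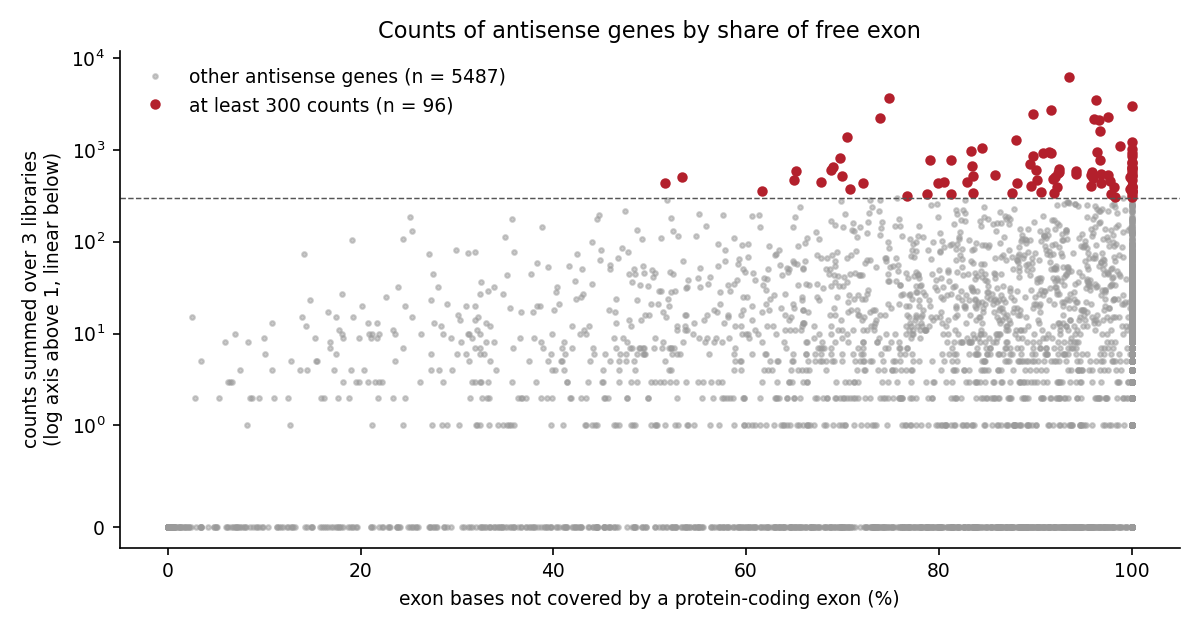
Counts summed over the 3 libraries (log axis above 1, linear below) against the percentage of exon bases not covered by a protein-coding exon, 1 point per antisense gene, with the 96 genes of at least 300 counts in red above the dashed line. The genes at 0% all lie at 0 counts, and the red points begin at 51.6%.

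Each of the 96 genes was then placed against the protein-coding gene that its annotated span overlaps most. An overlap was found for 89 of the 96, each of which also had one with a coding gene of the opposite strand, and 27 overlapped more than 1. In 28 the 3' ends of both genes overlapped, in 25 the 5' ends did, 23 lay within the coding gene and 9 contained it. The coding gene with the longest overlap was on the same strand in 4, among them PSMA3-AS1 (with ARMH4), THAP9-AS1 (SEC31A) and AC005034.3 (MRPL19). Without a coding overlap were 7 genes, AC105942.1, AL513165.1, AC093673.1, OTUD6B-AS1, MAFG-DT, MAN1B1-DT and LHX1-DT.

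Most of the antisense genes were below their coding gene in FPKM, and a few far above it. Of the 87 with an overlapping gene that had any count, 33 were above it, and the median ratio of antisense to coding gene was 0.600. The median was 0.511 where 5' ends overlapped (25 genes) and 0.731 where 3' ends did (28 genes), and it was 0.732 for genes within the coding gene (22) and 3.44 for genes that contain it (8). At the upper end were antisense genes beside almost silent coding genes. FGD5-AS1 had 26.8 FPKM on average, whereas FGD5, a guanine nucleotide exchange factor known from endothelium, had 0, 1 and 3 counts. At its other end FGD5-AS1 also overlaps NR2C2, by 155 exon bases, and NR2C2 had 1408, 1268 and 1467 counts. DLGAP1-AS1 and DLGAP1-AS2 had 284 to 326 and 307 to 363 counts per library inside DLGAP1, a scaffold of synapses that had 0, 0 and 1. HAGLR with 164, 184 and 193 counts met HOXD3, a homeobox gene with 2, 0 and 0.

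Among the lowest against the coding gene were antisense genes at highly expressed genes. The ratio of mean FPKM was 0.0244 for AC068888.1 at EIF4B, a translation initiation factor. It was 0.0338 for SLC16A1-AS1 and 0.0352 for KRT7-AS within KRT7, a keratin of simple epithelia, and 0.0421 for ELF3-AS1 at RNPEP. These ratios use the coding gene with the longest overlap, and in AC068888.1 and ELF3-AS1 they depend on that choice. AC068888.1 also overlaps TNS2, by 364 exon bases, and TNS2 had 674 counts summed, against 19934 of EIF4B. ELF3-AS1 also overlaps ELF3, by 664 exon bases, and ELF3 had 1083 counts summed, against 4724 of RNPEP. KRT7-AS had 335, 327 and 311 counts, beside 19541, 21789 and 25835 of KRT7. The fitted log2 fold changes were -0.12 ± 0.18 for KRT7-AS and 0.24 ± 0.10 for KRT7. Without strand, reads of unspliced KRT7 RNA on these exons cannot be told apart from antisense reads.

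**Figure D3:**
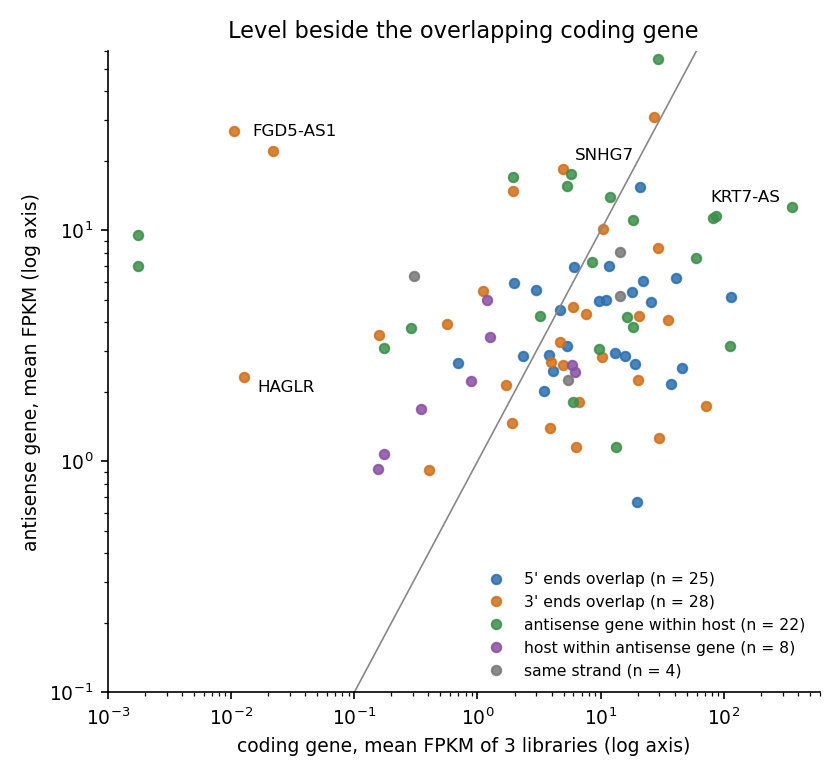
Mean FPKM over the 3 libraries of each antisense gene against that of the coding gene with the longest overlap (both axes log), coloured by how the genes lie, with the line of equal level and 2 pairs left out because the coding gene had 0 counts. FGD5-AS1 and HAGLR lie far left of the line, and KRT7-AS far right of it.

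The comparison of the libraries labelled as knockdown with the control asks which of these genes changed with the hairpins. SNHG7 rose, and no other of the 96 passed an adjusted p of 0.05 in edgeR's quasi-likelihood test, which was fitted and adjusted over 19849 genes. Over all genes, 70 passed, which is 0.353% (0.247% higher and 0.106% lower), and over the 10861 genes with at least 300 counts it was 0.571%, so that 1 of 96 is near the background. At an unadjusted p under 0.05 were 5 of the 96, 2 higher and 3 lower, against 11.7% of all genes and 15.6% of those with at least 300 counts. In edgeR's test 0 of the 96 had an unadjusted p under 0.05 together with a fold above 2, as against 2.48% of all genes and 0.0921% of those with at least 300 counts. By the same threshold DESeq2's Wald test called 0 of the 96 and 0.232% of all genes. The log2 fold changes ran from -0.70 to 0.57, and 92 of the 96 were within 0.5 of 0.

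SNHG7 lies on the minus strand of chromosome 9 from 136721366 to 136728184 (GRCh38), with 4 annotated transcripts. The ratio of its CPM to that of the control was 1.43 in the library labelled Knockdown1 (1.32 to 1.56, a 95% counting interval) and 1.499 in the library labelled Knockdown2 (1.38 to 1.63). These exact intervals cover counting error only. The adjusted p was 0.0207 with edgeR and 1.00 (0.9998) with DESeq2's Wald test, which called 0 of the 96 and 0.0302% of all genes, so that the call rests on the tool. At its 3' end SNHG7 runs into FAM69B, and 74.8% of its exon bases were free of coding exons. FAM69B had 205, 189 and 209 counts and a fitted change of -0.09 ± 0.21 on the log2 scale.

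The largest fitted falls were those of TMEM161B-AS1 and AC005034.3, neither of which passed the adjusted test. TMEM161B-AS1, which starts inside TMEM161B and runs out of it, had 179 counts in the control and 117 and 110 in the libraries labelled Knockdown1 and Knockdown2, both below the control. Its log2 fold change was -0.70 ± 0.23 with an adjusted p of 0.162 in edgeR's test. AC005034.3, a gene of a single exon within MRPL19, which encodes a protein of the mitochondrial ribosome, had 279, 170 and 187 counts, both again below the control, with -0.69 ± 0.20 and an adjusted p of 0.0741 in edgeR's test. AC005034.3 lies in an intron of MRPL19 on the same strand, so that its reads and those of unspliced MRPL19 RNA cannot be told apart. On the opposite strand it overlaps GCFC2, which had 1291 counts summed, and shares no exon base with it. Without strand, reads of unspliced GCFC2 RNA on that overlap cannot be told apart from its own either. MRPL19 had 1093, 934 and 978 counts and -0.24 ± 0.13.

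AC024896.1 had 194, 137 and 160 counts and a fitted value of -0.43 ± 0.22, RUSC1-AS1 had 251, 191 and 214 with -0.36 ± 0.20, and SLC16A1-AS1 had 123, 77 and 109 with -0.45 ± 0.26. In each, both libraries labelled as knockdown were below the control, and the adjusted p in edgeR's test was 0.414, 0.472 and 0.488. RUSC1-AS1 meets the end of FDPS, the gene of farnesyl diphosphate synthase. SLC16A1-AS1 alone of these 3 had a counting interval that reached 1, from 0.633 to 1.08 in the library labelled Knockdown2.

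The largest positive values beside SNHG7 were uneven between the libraries. GATA2-AS1 starts inside GATA2 and runs out of it, GATA2 being a transcription factor of blood-forming and other cells. It had 179 counts in the control and 215 and 335 in the libraries labelled Knockdown1 and Knockdown2. Its ratio to the control was 1.20 (95% counting interval 0.980 to 1.47) in the former and 1.75 (1.45 to 2.11) in the latter, and the log2 fold change of 0.57 ± 0.20 had an adjusted p of 0.212 in edgeR's test. It was 0.81 with the library labelled Knockdown2 alone and 0.27 with the library labelled Knockdown1 alone. GATA2 itself had 350, 364 and 517 counts and was likewise highest in the library labelled Knockdown2.

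AP002387.1, inside DHCR7, which encodes the last enzyme of cholesterol synthesis, had 90, 102 and 162 counts, with 0.50 ± 0.26 as its log2 fold change. MAFG-DT had 124, 141 and 201 counts and 0.41 ± 0.23. AP003392.1, inside CCDC84, had 90, 133 and 108 and 0.38 ± 0.26. The adjusted p in edgeR's test was 0.432, 0.480 and 0.597. AP002387.1 and MAFG-DT were highest in the library labelled Knockdown2, and AP003392.1 in the library labelled Knockdown1.

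**Figure D4:**
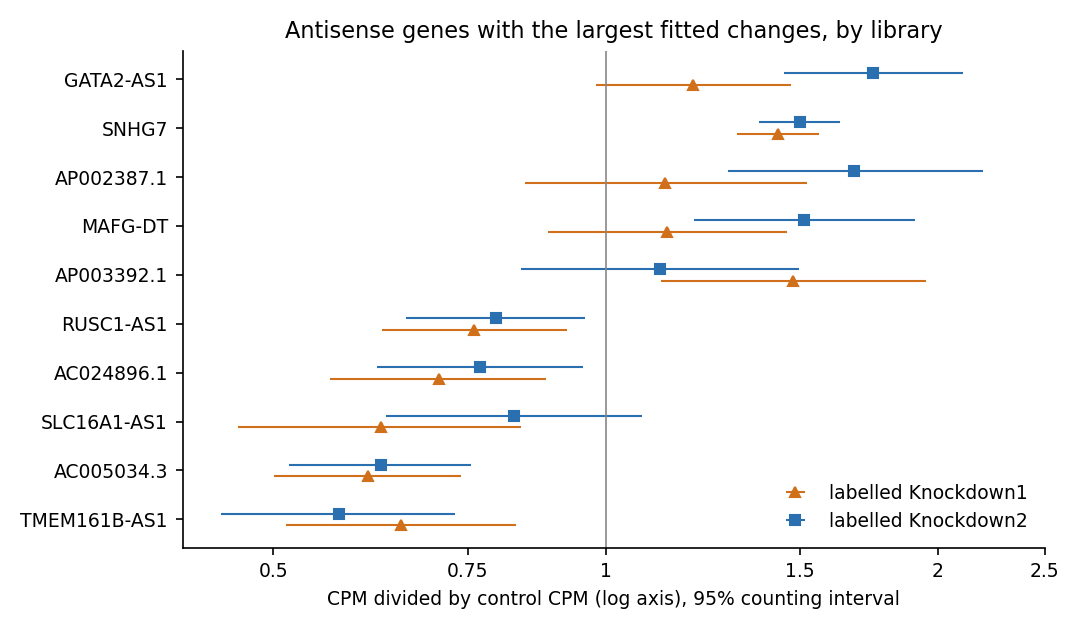
CPM divided by the control's CPM (log axis) in the libraries labelled Knockdown1 (triangles) and Knockdown2 (squares), with 95% counting intervals, for the 5 largest fitted rises and 5 largest fitted falls among the antisense genes with both libraries on the same side of the control, which lies at 1. SNHG7 has both intervals clear of 1, at 1.43 and 1.499, while those of GATA2-AS1 lie apart at 1.20 and 1.75.

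The fold changes as a whole lay slightly below 0. The median log2 fold change of the 96 was -0.07, beside 0.00 (0.0015) over all genes tested and 0.00 (0.0031) over genes with at least 300 counts. The SE of a single gene was 0.12 to 0.26 with a median of 0.21, which is wider than the 0.15 median of all genes with at least 300 counts. A change within this SE was not detectable with these libraries, and larger ones could also fail the adjusted test. GATA2-AS1 with 0.57 ± 0.20 and AC005034.3 with -0.69 ± 0.20 did not pass it in edgeR.

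Whether an antisense gene changed otherwise than its coding gene was tested as the difference of their log2 fold changes, with the SEs of edgeR's fit combined as independent and a two-sided normal test, adjusted over the 1361 pairs in which both genes were tested. For 6 of the 89 genes the coding gene had too few counts, which left 83 pairs. Of these, 0 passed the adjusted p, and 1 had an unadjusted p under 0.05, against 0% and 5.14% of the 1361 pairs, and with DESeq2's estimates 0 of the 83 pairs and 0% of all such pairs passed the adjusted p. The pair with the lowest p was SNHG7 and FAM69B, with a difference of 0.65 ± 0.25, a p of 0.00845 and an adjusted p of 0.758 from edgeR's estimates. AC005034.3 differed from MRPL19, which lies on the same strand, by -0.45 ± 0.24, NUTM2A-AS1 from NUTM2A by 0.98 ± 0.53, KRT7-AS from KRT7 by -0.35 ± 0.21 and AC080112.1 from GJD3, a connexin, by -1.29 ± 0.76. These differences had adjusted p of 0.913 and above. NUTM2A had 38, 17 and 26 counts, and GJD3 8, 25 and 15, so that their pairs rest on few counts of the coding gene. GJD3 has 17.2% of its exon bases free of AC080112.1.

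The fold changes of antisense and coding genes were also correlated, as a description. Over the 25 pairs with overlapping 5' ends, r (Pearson) was 0.60 and rho (Spearman) 0.59, and the median absolute difference was 0.16. Over 26 pairs with overlapping 3' ends r was 0.33 and rho 0.49, with a median absolute difference of 0.14, and over 20 pairs with the antisense gene inside the coding gene r was -0.13 and rho 0.10, with a median absolute difference of 0.27. With only coding genes of at least 300 counts, r was 0.60 over 23 pairs, 0.48 over 22 and 0.18 over 18. All points share the same 3 libraries, genes are not independent replicates, and the difference between these layouts was not tested.

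Starts that lie side by side do not always give overlapping genes, so the coding gene of the opposite strand with the nearest annotated start was taken as well, a choice made after the values were seen. It lay within 1000 bases for 39 of the 96 and within 300 for 19. Their fold changes had r = 0.55 and rho = 0.67 over 39 pairs. With edgeR's estimates 0 of the 39 differences had an adjusted or an unadjusted p under 0.05, against 0% and 4.76% of all 525 antisense genes with such a pair. Among them, ZFAS1 starts, by the deposited coordinates, 248 bases from ZNFX1, and its log2 fold change was -0.03 beside 0.17 of ZNFX1. FGD5-AS1 starts 840 bases from NR2C2, with -0.11 beside -0.09, and HCG18 starts 671 bases from TRIM39, with -0.13 beside 0.20.

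**Figure D5:**
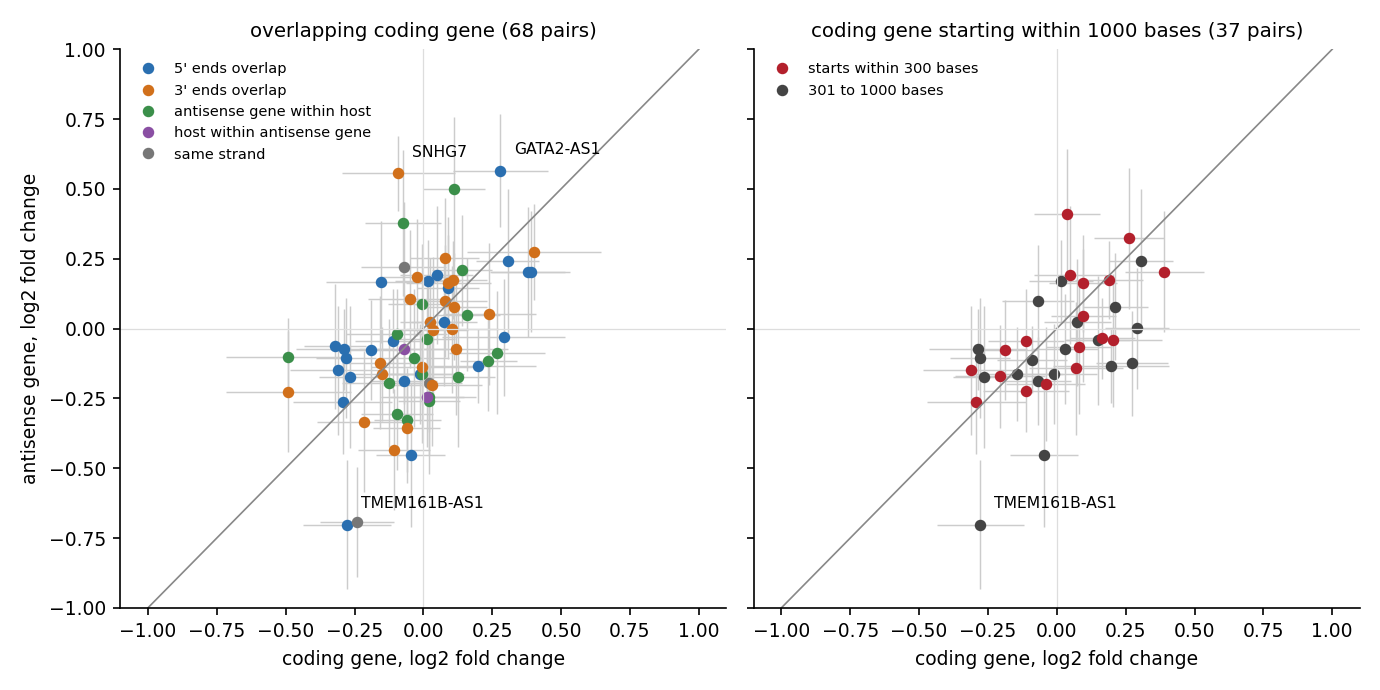
Log2 fold change of the antisense gene against that of a coding gene with at least 300 counts, with SE bars and the line of equality, for the overlapping coding gene coloured by layout (left, 68 pairs) and for the coding gene that starts within 1000 bases on the opposite strand (right, 37 pairs, red within 300 bases). The points scatter around the line, with r (Pearson) of 0.47 in the left panel and 0.57 in the right, and in the left panel SNHG7 stands above it at 0.56 against -0.09.

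The stretches between such paired starts are short enough to be shown whole. Below are the 6 of at most 114 bases and at least 29 that do not overlap either gene and that a RefSeq window covers, on the strand of the antisense gene, which starts at the right end. They are shown because an antisense and a coding gene are annotated to start at their ends on opposite strands, while start sites and promoter activity were not measured. Capitals mark TGACG on either strand, a core of the site to which CREB and ATF factors bind, and, in the first and second, CCGGAAGTGACG on either strand, the longest run shared by this pair of stretches and chosen for that. TGACG lies within that run.
NOP14-AS1 and MFSD10, chr4:2934860-2934898, plus strand: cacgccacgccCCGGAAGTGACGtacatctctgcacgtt
CKMT2-AS1 and ZCCHC9, chr5:81301561-81301589, minus strand: agtgcccgagagcgCGTCACTTCCGGcgt
ARRDC1-AS1 and EHMT1, chr9:137618907-137618962, minus strand: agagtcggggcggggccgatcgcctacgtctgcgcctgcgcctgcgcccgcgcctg
AL928654.1 and MTA1, chr14:105419740-105419819, minus strand: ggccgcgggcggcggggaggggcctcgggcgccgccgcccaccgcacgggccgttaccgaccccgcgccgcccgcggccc
MAN1B1-DT and MAN1B1, chr9:137086818-137086926, minus strand: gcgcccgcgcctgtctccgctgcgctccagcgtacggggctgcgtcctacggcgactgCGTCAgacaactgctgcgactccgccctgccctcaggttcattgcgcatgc
MAFG-DT and MAFG, chr17:81927715-81927828, plus strand: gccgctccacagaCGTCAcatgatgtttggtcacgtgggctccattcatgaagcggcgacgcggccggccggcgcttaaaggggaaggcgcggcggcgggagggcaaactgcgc

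TGACG was in 4 of the 6 stretches. Of the 34943 RefSeq windows, which are 300 bases long and so longer than these stretches, 24.5% held it on either strand, and 0.266% (93 windows) held CCGGAAGTGACG. Of the 60 windows of the antisense genes described here, 20 (33.3%) held TGACG and 2 held the longer run. Of 54 windows of the coding genes that start near them, 21 (38.9%) held TGACG and 1 held the longer run. The longer run was taken from the stretches of NOP14-AS1 and CKMT2-AS1, and windows of paired genes can cover the same bases. Its counts in both sets of windows therefore follow from that choice and are not a test. NOP14-AS1 had 825, 912 and 1011 counts, and MFSD10, a membrane transporter that starts beside it, had 1571, 1735 and 1971. Both genes were higher in each library labelled as knockdown, with log2 fold changes of 0.17 ± 0.14 and 0.19 ± 0.12. MAN1B1-DT had 99, 120 and 136 counts and MAN1B1, a mannosidase of the secretory pathway, 1378, 1584 and 1835, with 0.32 ± 0.25 and 0.26 ± 0.13. In these pairs the genes differed by -0.02 and 0.06, less than their SE.

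ARRDC1-AS1 had 332, 355 and 413 counts and EHMT1, a histone methyltransferase, 1591, 1664 and 1850, with log2 fold changes of 0.16 ± 0.18 and 0.10 ± 0.12. CKMT2-AS1 had 137, 133 and 123 counts and ZCCHC9 380, 412 and 412, with -0.14 ± 0.24 and 0.07 ± 0.17. AL928654.1 had 132, 109 and 152 counts and MTA1, a subunit of the NuRD complex, 2188, 2258 and 2528, with -0.07 ± 0.24 and 0.08 ± 0.12. MAFG-DT stood furthest from its partner, with 0.41 ± 0.23 against 0.04 ± 0.12 for MAFG, a small MAF transcription factor with 2115, 2112 and 2379 counts. That difference of 0.37 had an unadjusted p of 0.152 in the normal test on edgeR's estimates.

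Lists of antisense genes were also followed. Of 18 genes of the HOX clusters, whose antisense RNAs lie between the homeobox genes, 15 are annotated as antisense, all 15 had counts, and 3 reached 300. HAGLR had a log2 fold change of 0.15 ± 0.22, and HOXB-AS3, with 156, 164 and 198 counts, had 0.17 ± 0.22. HOXA-AS2, with 154, 117 and 162, had -0.19 ± 0.23. None of the 3 passed the adjusted test, against 0.353% of all genes with edgeR and 0.0302% with DESeq2. None had an unadjusted p under 0.05 in edgeR's test, against 11.7% of all genes. With 3 genes, 0 is near these shares.

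Of 53 widely studied antisense RNAs, 49 are in the files, 31 are annotated as antisense, 28 had counts and 12 reached 300. SNHG7 was the only one of the 12 to pass the adjusted test, and the only one with an unadjusted p under 0.05, against 0.353% and 11.7% of all genes tested, and its adjusted call was lost with DESeq2. The 12 had log2 fold changes from -0.22 to 0.56 with a median of -0.09. MCM3AP-AS1, which overlaps the end of MCM3AP and starts 393 bases from the lanosterol synthase gene LSS, had 245, 246 and 289 counts and 0.08 ± 0.19.

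Of a list of 21 coding genes drawn up for cell division and its control, 3 were the coding gene with the longest overlap of one of the 96. They were MCM3AP of MCM3AP-AS1, CKMT2 of CKMT2-AS1 and TMPO of TMPO-AS1. PSMA3, also on the list, overlaps PSMA3-AS1, whose longest overlap is with ARMH4. CKMT2 encodes a mitochondrial creatine kinase and is not a gene of cell division, so that its place in the list is not one of function. TMPO-AS1, which starts inside TMPO, the gene of a lamina-associated protein, had 116, 117 and 95 counts, with -0.17 ± 0.26 as its log2 fold change, and TMPO had 5295, 4704 and 4373. Of 8 genes listed for prostate cancer and androgen signalling, 7 are in the files, 2 are annotated as antisense, and none of the 96 bore a name from the list. CTBP1-DT, for which RefSeq gives a name of that list as a synonym, had 648, 739 and 767 counts and 0.17 ± 0.15. PCAT7, a prostate cancer associated transcript chosen here with its values in view, had 342, 294 and 291 counts and -0.27 ± 0.18.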

How the data were processed

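Poly(A) RNA of 3 DU145 libraries was sequenced by a service company after random-hexamer cDNA synthesis, and no step that marks the strand is named. The authors deposited raw counts per gene and FPKM, and a check showed that the FPKM equal the counts over the listed gene length times 1 constant per library (within 1%). The submitters' processing notes name Bowtie2 2.0.6, TopHat2 2.0.9, Cufflinks 2.1.1 and Cuffdiff 2.1.1. The counting tool and its use of strand are not given in the sources used here.

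Genes with at least 10 summed counts (19849) were tested with edgeR 4.0.16 (TMM, glmQLFit, glmQLFTest, 1 residual degree of freedom) in R 4.3.3, with Benjamini-Hochberg adjustment. DESeq2 1.42.0 was an alternative. With 1 control, the only spread at hand was that between the libraries labelled Knockdown1 and Knockdown2. Their counts gave a chi-square of 5.57 for each degree of freedom, so that they were not copies. In edgeR's fit the prior degrees of freedom were infinite, so that this spread was pooled over genes. Its p-values and SEs thus do not measure how far the hairpin libraries differed in a single gene. Exon overlap was computed from GENCODE release 29. Ratio intervals are exact conditional binomial 95% intervals. Without molecular identifiers, PCR copies cannot be told from separate molecules, so intervals cover counting error only.

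The genes, lists and tests were chosen with earlier results of these data known. Named are the 10 most counted, those past the adjusted p, the 5 largest rises and falls with both libraries on one side of the control, the 5 pairs with the lowest p, the 5 highest and lowest ratios to the coding gene, 3 genes on each side of the minimum, and genes of the lists. Results of some of these genes are not reported here.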

Additional observations from a re-analysis of the deposited data

How the results depend on the processing

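The call of SNHG7 held in edgeR with DESeq2's size factors, with library totals alone and with a minimum of 1 count, and was lost with DESeq2's Wald test, where 0 of the 96 passed. Its log2 fold change ran from 0.53 to 0.59 without 1 library labelled as knockdown. With a minimum of 100 summed counts (322 genes) 5 antisense genes (1.55%) were past the p and fold threshold, against 0.413% of all genes with that minimum and 2.48% of all genes tested, the median log2 fold change was -0.021, and 288 genes had a coding overlap, whereas with a minimum of 1000 the median was -0.10 and 17 of 17 genes had an overlap, more or fewer genes being tested by construction. Without 1 library labelled as knockdown the median of the 96 ran from -0.08 to -0.06. Counting only opposite-strand overlaps left 89 genes and only exon overlaps 74. No pair of antisense and coding gene passed under any scaling, filter or tool tried, with the most counted coding gene, or with the nearest start, which was added after the data were seen. Of 34 named genes, 0 changed sign with scaling, filter or tool, with moves of at most 0.0042 on the log2 scale, and 6 did without 1 library labelled as knockdown. AC068888.1 was 0.31 without the library labelled Knockdown1 and -0.34 without the other. No paired analysis was possible because the control has no replicate. The SE of a single gene of the 96 was 0.12 to 0.26. It holds the spread pooled over genes as well as counting error, and the lowest SE of any gene tested was 0.09.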
